A study of Mus musculus with 12 samples.

Results

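Cycling macrophages were studied as the barcodes of the CD45+ libraries that carried transcripts of a macrophage together with transcripts of a dividing cell. A barcode was counted when it had more than 200 and fewer than 5000 genes, at most 10% mitochondrial unique molecular identifiers (UMIs, 1 for each captured transcript), at least 2 UMIs of Adgre1 and Csf1r together, at least 3 of C1qa, C1qb and C1qc together, at least 1 of Mki67 and at least 1 of Top2a, and none of Cd3d, Cd3e, Cd3g or Cd79a. Of the 128912 cells that passed the limits on genes and mitochondrial UMIs, 73445 were macrophages of this gate and 10101 of those were cycling, which is 13.8% of the macrophages (exact Clopper-Pearson 95% interval 13.50 to 14.004%, counting error only). The comparison cells were the 50860 macrophages of the same gate without a UMI of Mki67 or Top2a. The remaining 12484 macrophages had UMIs of 1 of the 2 genes, 5995 of Mki67 and 6489 of Top2a, and entered neither set.

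The libraries came from tumors of MC38, a mouse colon adenocarcinoma line, grown under the skin of C57BL/6 mice. There were 4 groups of 3 mice: vehicle for 7 days, the EZH2 inhibitor (EZH2i) PF-06821497 at 100 mg/kg daily for 7 days, vehicle for 16 days and the same EZH2i dose for 16 days, and every tumor was taken on day 17. The cells were enriched with beads against CD45, so the libraries mix macrophages with all other leukocytes of the tumor. The barcodes of the deposited matrix carry a library number from 1 to 12 that no label ties to a mouse, and groups were taken from the labels alone, so the matrix was treated as 1 pooled sample and vehicle and EZH2i were not compared. Values of single libraries are given one by one or as lowest, median and highest.

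A dividing cell passes through G1, S, G2 and M phase. D-type cyclins with CDK4 or CDK6 and then cyclin E with CDK2 phosphorylate the retinoblastoma protein RB, which frees E2F factors to switch on the genes of DNA replication. Later the MuvB complex with B-MYB and FOXM1 drives the genes of G2 and mitosis through a promoter element called CHR. Tissue macrophages can divide in place under CSF1, and tumor macrophages are known to arise both from incoming Ly6C+ monocytes and from local division. EZH2, the target of the inhibitor, is the catalytic subunit of polycomb repressive complex 2 (PRC2), which methylates histone H3 at lysine 27, and its gene is a known E2F target.

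The rule used Mki67, Top2a, Adgre1, Csf1r and the C1q genes, so their values only describe the cells chosen. The cycling macrophages had a median of 3 UMIs of Mki67, 5 of Top2a, 8 of Adgre1 and Csf1r together and 152 of the C1q genes. At the edge of the rule, 1091 cells (10.8%) had exactly 1 UMI of each cycle gene, 840 had exactly 2 UMIs of Adgre1 and Csf1r, and 13 had exactly 3 of C1q. The levels of the macrophage genes of the rule were close in both sets: C1qa stood at 5783 CPM (the UMIs of the gene scaled to the usual common total) in the cycling and 6058 in the comparison macrophages, Csf1r, the CSF1 receptor, at 456 and 460, and Adgre1, which encodes F4/80, at 306 and 317.

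Of the macrophage genes outside the rule, most were found more often than in neutrophil barcodes. Those neutrophils were chosen to hold no UMI of Adgre1, Csf1r or C1q, which favors barcodes with little free RNA of macrophages. Part of the gap may therefore come from that choice. With every barcode cut down to 2000 randomly drawn UMIs (thinned), Aif1 was found in 81.8% of the cycling macrophages and 7.45% of 188 neutrophil barcodes, Ms4a7 in 65.0 and 4.79%, Cd68 in 57.2 and 29.8%, Fcgr1 in 47.4 and 12.2% and Mertk in 11.5% of the macrophages and none of the neutrophils. Apoe was found in 98.9% of the cycling macrophages and 71.8% of the neutrophils, and Lyz2 in 98.8 and 64.9%. Cd14 went the other way, with 71.9% of the cycling macrophages and 96.3% of the neutrophils. At least 1 UMI of 16 genes of other cell types was found in 28.6% of the cycling and 26.8% of the comparison macrophages. Without these barcodes the comparison described below gave 1024 genes higher and 220 lower, of which 964 and 155 were among the 1068 and 240 reported. The T and NK cell list of 12 genes summed to 11.2 CPM in the cycling and 15.3 CPM in the comparison macrophages, with a median of 5.31 CPM over the libraries in the cycling cells. The B and plasma cell list of 5 genes summed to 6.35 and 6.81 CPM, the dendritic list of 7 to 10.6 and 16.9, the stromal list of 8 to 24.1 and 28.5, and the neutrophil list of 8 to 87.9 and 154. The neutrophil sum ran from 21.7 to 669 CPM over the libraries in the cycling and from 48.7 to 1290 CPM in the comparison cells. For the tumor list of 5 keratin and adhesion genes the sums were 2.63 and 2.60 CPM, with Krt8 and Krt19 at 0 in the cycling macrophages. Hemoglobin transcripts ran from 0 to 290.1 CPM in the cycling and from 0.0502 to 251 CPM in the comparison cells, and summed to 47.3 and 31.0 CPM. Of the 10087 barcode sequences of cycling macrophages, 14 were those of cycling macrophages in more than 1 library. Matches to other cells of another library were not counted here. Among all cells kept, 1877 of 127014 sequences occurred in more than 1 library. Each count covers matches within its own set and the sets differ in size, so the shares cannot be compared.

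Cycling macrophages were the deeper barcodes, with a median of 11713 UMIs and 3235 genes against 5846 UMIs and 2024 genes in the comparison macrophages, while mitochondrial UMIs made up 4.86 and 4.62%. The libraries also differed in depth, from a median of 4137 UMIs per cycling macrophage in library 6 to 25030 in library 8. UMIs of Y-linked genes numbered 11149 to 21036 in each of libraries 1 to 6 and were 0 or 1 in libraries 7 to 12, whereas the methods name female mice. The comparison was therefore made within libraries and within classes of depth, and results are given below for the libraries apart where they differ.

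Every library held cycling macrophages. They made up 25.6% of the macrophages in library 1, 12.5% in library 2, 21.5% in library 3, 6.36% in library 4, 10.4% in library 5 and 10.5% in library 6. In library 7 the share was 20.6%, in library 8 9.16%, in library 9 19.8%, in library 10 11.4%, in library 11 11.3% and in library 12 8.28%. Libraries 1, 3, 7 and 9 stood near or above 20%, and library 4 was lowest. Vehicle and EZH2i mice are both among the 12 libraries, so any effect of treatment is part of these differences and was not compared. The exact 95% intervals of libraries 1, 3, 7 and 9 lie above those of all the others, but the intervals cover the counting of cells and not the spread between mice.

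A deeper barcode shows a rare transcript more often, so the shares were also taken at equal depth. With every barcode cut down to 2000 randomly drawn UMIs, which left out 4573 shallower macrophages, 23 of them cycling, 5.27% of the macrophages still had a UMI of both genes. The thinned shares were 9.02, 3.95, 7.59, 1.17, 4.23 and 6.66% in libraries 1 to 6 and 7.69, 0.868, 6.70, 5.11, 3.09 and 1.07% in libraries 7 to 12. Libraries 1, 3 and 7 kept the highest shares, library 6, the shallowest, moved up next to library 9, and libraries 8, 4 and 12 were lowest. Library 6 held most of the macrophages left out, with 12521 of its 16386 kept, so its thinned share is that of its deeper cells. As a background, among 776 neutrophil barcodes with a median of 1067 UMIs, Mki67 was found in 1.16% and Top2a in 0.515%, and none had both, which allows a share of up to 0.387%. These neutrophils were chosen to hold no UMI of Adgre1, Csf1r or C1q, a choice that favors barcodes with little free RNA of macrophages, so the background may be higher. Thinned to 2000 UMIs, none of 188 neutrophils had both genes, which allows up to 1.596%, so the thinned shares of libraries 4, 8 and 12 cannot be set apart from that limit.

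The upper limit on genes removed cycling macrophages in particular. Without it, the cycling macrophages numbered 11375, and the limit took away 1274 of them (11.2%) against 0.879% of the comparison macrophages. Library 8 went from 287 to 1009 cycling macrophages and from 9.16 to 22.4% of its macrophages, and library 12 from 186 to 494 and from 8.28 to 17.2%. In library 11 the share moved from 11.3 to 14.6%, and in the other 9 libraries the limit removed 0 to 2.89% of the cycling macrophages. Thinned to 2000 UMIs, the shares without the limit were 5.31% in library 8, 4.41% in library 11 and 3.99% in library 12. Library 4 kept its low share of 6.45% without the limit and 1.19% after thinning.

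**Figure D1:**
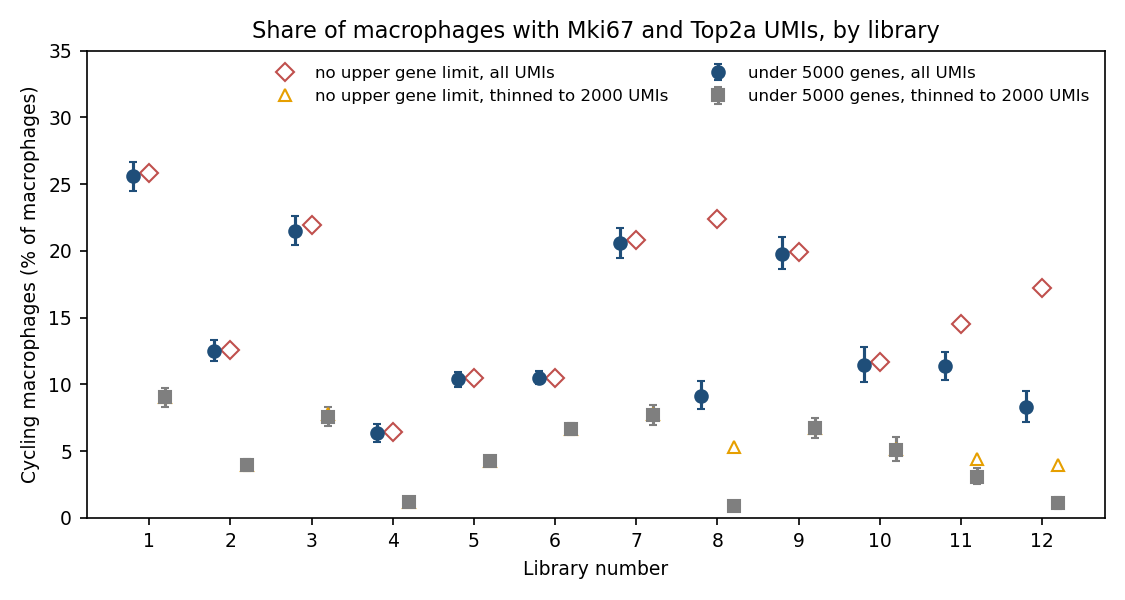
Share of macrophages with UMIs of both Mki67 and Top2a (y axis, %) in each library (x axis, library number). Circles and squares are barcodes under 5000 genes before and after thinning to 2000 UMIs, with exact 95% binomial intervals, and open diamonds and triangles are the same shares without the upper gene limit. Libraries 8, 11 and 12, the deepest, are those where the open symbols stand well above the filled ones, as in library 8 with 9.16 and 22.4%.

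The comparison across genes set the UMIs of the cycling macrophages against those of the comparison macrophages weighted to the same UMI total in each library and depth class (0.5 on the log2 scale). It held 9971 of the 10101 cycling cells and 11407 genes with at least 100 UMIs observed or expected, the genes of the rule left out. A gene was counted as higher when its ratio was at least 1.5 and over 1 in each of the 12 libraries, and as lower when the ratio was at most the inverse and under 1 in each. By this rule 1068 genes (9.36%) were higher and 240 (2.1%) were lower, and the median ratio of all genes compared was 1.02. The higher genes together made up 62286 CPM in the cycling and 25173 CPM in the comparison macrophages. Cells of 1 pooled sample are not replicates, so no test was run, and since the cells were chosen by 2 genes of the cell cycle, the ratios of genes that move with these describe the choice. Intervals of ratios are exact Poisson 95% intervals of the cycling count. They cover its counting error only and leave out that of the comparison cells.

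Of the 43 S phase genes 41 were higher, with a median ratio of 3.84, and of the 52 G2/M genes 51 were higher, with a median ratio of 15.7, and none of either list was lower, beside the 9.36% of all genes that were higher. The genes outside the count were Ung and Cdca7, which were higher in 11 of 12 libraries, and Gas2l3, whose ratio was 1.46. In S phase, the ratio was 21.04 (20.66 to 21.43) for Rrm2, the small subunit of ribonucleotide reductase, and 2.53 (2.50 to 2.56) for Pcna, the sliding clamp of DNA polymerase. Pcna stood at 88.1 CPM in the comparison macrophages, which may hold cycling cells whose Mki67 and Top2a were not captured, and 222 CPM in the cycling ones. In G2/M, Nusap1, a spindle protein, stood at 128 against 2.01 CPM (ratio 63.7, 62.7 to 64.7), Cenpf, a kinetochore protein, at 152 against 2.96 CPM, and Kif11, the spindle motor Eg5, at 92.8 against 1.82 CPM. The level also followed the UMIs of the 2 chosen genes. Summed G2/M genes made up 1107 CPM of the macrophages with neither gene, 2054 CPM of those with 1 of the 2, 2594 CPM of the cycling macrophages with exactly 1 UMI of each and 7760 CPM of those with at least 2 UMIs of each. For the S phase genes these sums were 635, 1148, 1678 and 2788 CPM.

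Beside the 9.36% of all genes, all 11 genes of origin licensing were higher, from a ratio of 1.96 for Mcm4 to 5.40 for Orc1, a subunit of the origin recognition complex, with the helicase subunits Mcm2 to Mcm7 between 1.96 and 4.11. All 9 genes of nucleotide synthesis were higher too, among them Tk1, thymidine kinase, at 100.6 against 8.72 CPM (ratio 11.5) and Tyms, thymidylate synthase, at 131 against 16.6 CPM (ratio 7.90). Each of the 16 histone, chromatin and tubulin genes was higher. These lists share genes with those above, so their counts are not separate. Cdc6, Gmnn, Mcm2, Mcm4, Mcm5 and Mcm6 of licensing and Rrm1, Rrm2 and Tyms of nucleotide synthesis are also S phase genes. Hmgb2 of the histone and chromatin list is also a G2/M gene. Hist1h1b, a linker histone of S phase, had the highest ratio of all listed genes, at 350.0 against 4.43 CPM (ratio 79.0, 78.2 to 79.7). The variants H2afz and H2afx, which are made in and out of S phase, had ratios of 2.89 and 10.7, and Stmn1, a microtubule destabiliser (ratio 8.18), was found at 2000 UMIs per cell in 68.0% of the cycling macrophages, 10.2% of the comparison macrophages and 2.13% of neutrophils. Most mRNAs of replication histones lack a poly(A) tail and near-identical copies share reads, so the levels of single histone genes are uncertain. Of the 10 genes of ribosome biogenesis Nop58 (ratio 1.69) and Nop56 (ratio 1.55) were higher, beside 9.36% of all genes, and the median of the list was 1.17.

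**Figure D2:**
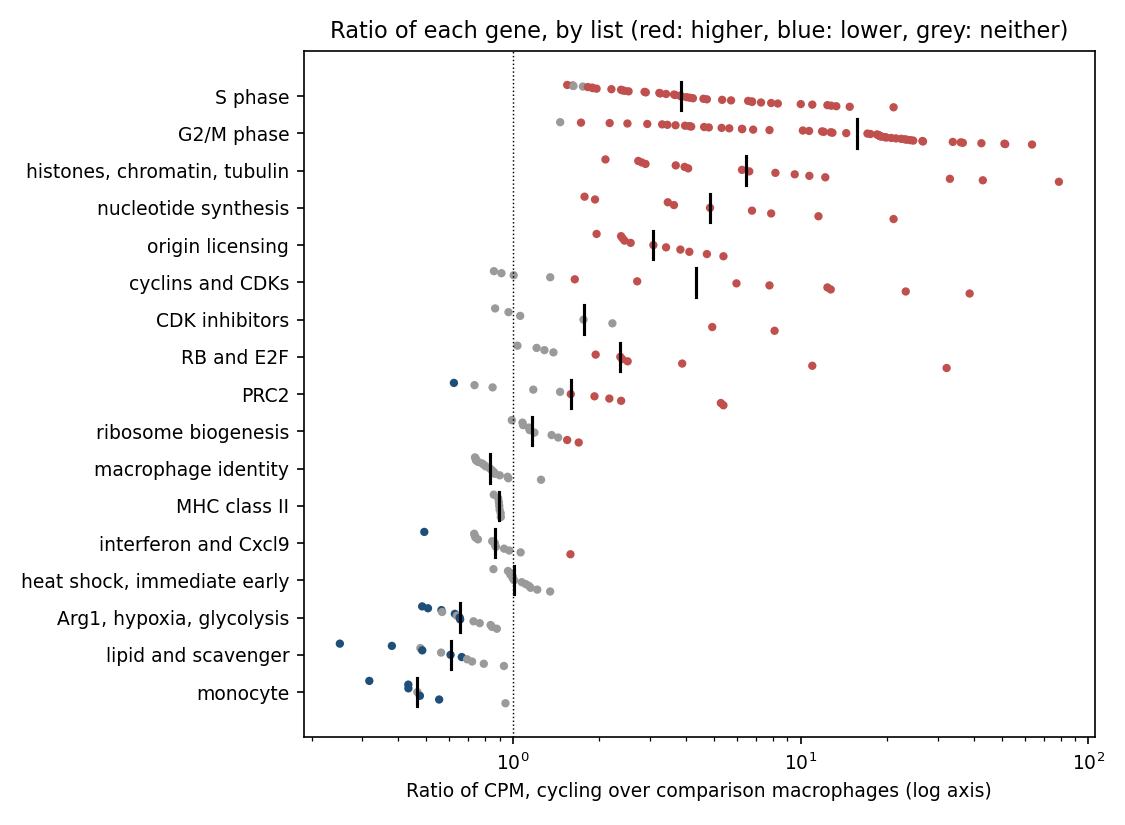
Ratio of CPM in cycling over comparison macrophages (x axis, log scale) for each compared gene of 17 lists (rows). Each point is a gene, colored by whether it was counted as higher, lower or neither, and the black bar is the median of the list, which runs from 15.7 for the G2/M genes to 0.466 for the monocyte genes.

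The cyclins and their kinases separated by phase. The E-, A- and B-type cyclins were the most different. Ccna2 stood at 118 against 3.05 CPM (ratio 38.67, 38.02 to 39.32), Ccnb1 at 81.0 against 3.49 CPM (ratio 23.2) and Ccne2 at 21.1 against 1.70 CPM (ratio 12.4). Ccnb2 stood at 95.8 against 12.3 CPM (ratio 7.80) and Ccne1 at 31.8 against 5.30 CPM (ratio 5.99). Their kinase Cdk1 had a ratio of 12.7 and Cdk2 one of 2.71. The D-type cyclins, which act in G1, were not among the higher genes. Ccnd1 stood at 168 CPM in the cycling and 195 CPM in the comparison macrophages, with a ratio of 0.860 (0.848 to 0.873) and a lower level in 10 of 12 libraries. Over the libraries Ccnd1 ran from 128 to 209 CPM in the cycling and from 120 to 235 CPM in the comparison cells, so the ranges overlapped. On pooled CPM without weighting the levels were close, at 169.1 CPM in the cycling and 170.7 CPM in the comparison macrophages. With every barcode thinned as above, Ccnd1 was found in 26.5% of the cycling and 25.9% of the comparison macrophages. This share was higher in the cycling cells in 10 of 12 libraries, so the direction for Ccnd1 depended on the measure. Ccnd2 had a ratio of 0.914, Ccnd3 one of 1.35, in all 12 libraries over 1, and their kinases Cdk6 and Cdk4 had 1.01 and 1.64, so that Cdk4 alone of this G1 set was counted as higher.

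Cycling T cells of the same libraries, 206 barcodes with at least 2 UMIs of Cd3d, Cd3e and Cd3g, UMIs of Mki67 and Top2a and none of the macrophage genes of the rule, differed in the D-type cyclins. On pooled CPM without weighting, Ccnd1 stood at 6.02 CPM in cycling T cells and 169 CPM in cycling macrophages. Ccnd2 stood at 225 and 115 CPM, Ccnd3 at 106 and 33.8 CPM, and Cdk6 at 217 and 52.2 CPM. Ccnb1, at 85.1 and 80.4 CPM, and Cdk4, at 125 and 132 CPM, were close in both cell types. The summed cycle genes were not close. The G2/M genes summed to 11856 and 6730 CPM and the S phase genes to 4274 and 2609 CPM. The cycling T cells were shallower, with a median of 4692 UMIs against 11713 in the cycling macrophages. At a lower depth, 1 UMI of Mki67 or Top2a stands for a higher CPM. Depth was not matched here, and its part in these differences was not tested. These values are a description of 1 pooled sample, with no test.

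Of the 7 CDK inhibitors, Cdkn2c and Cdkn2d, 2 members of the INK4 family that bind CDK4 and CDK6, were higher, beside 9.36% of all genes. Cdkn2c stood at 51.4 against 6.33 CPM (ratio 8.12, 7.92 to 8.33) and Cdkn2d at 64.2 against 13.0 CPM (ratio 4.93, 4.82 to 5.05). Cdkn1a, which encodes p21, stood at 514 against 532 CPM (ratio 0.967, 0.959 to 0.974) and was over 1 in 5 of 12 libraries. The level of Cdkn1a in cycling T cells was 110.0 CPM. Cdkn1b, which encodes p27, had a ratio of 1.06. Cdkn2a, a locus that PRC2 is known to repress, was near the floor of detection, at 2.59 against 1.17 CPM, with a ratio of 2.22 that was over 1 in 10 of 12 libraries. Cdkn1c stood at 1.36 against 0.773 CPM (ratio 1.76, over 1 in 11 of 12 libraries) and Cdkn2b at 1.21 CPM in the cycling macrophages (ratio 0.869).

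Among the RB and E2F genes 7 of 11 were higher, and in the MuvB and FOXM1 list 6 of 7, beside 9.36% of all genes. E2f7 and E2f8, the atypical E2Fs that repress E2F targets late in S phase, had ratios of 32.2 and 10.98, and E2f1 and E2f2, which activate them, 1.94 and 2.51. The pocket proteins differed, with ratios of 3.88 for Rbl1 (p107), 1.21 for Rb1 and 1.04 for Rbl2 (p130). The MuvB and FOXM1 list was led by Foxm1 at 33.4 against 1.33 CPM (ratio 25.1, 24.4 to 26.0) and Mybl2, which encodes B-MYB, at 19.4 against 1.72 CPM (ratio 11.3). The core subunits Lin9, Lin52 and Lin54 had ratios of 4.35, 1.73 and 1.56.

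The promoters of these genes were read for the elements through which these factors are known to act: the CHR (TTTGAA), the CCAAT box (CCAAT) and 4 forms of the E2F site (TTTCCCGC, TTTCGCGC, TTTGCCGC, TTTGGCGC), on both strands. The RefSeq windows of GRCm38.p6 held 250 bases before and 50 after the start, for 32851 promoters of 27025 genes. The CHR was found in 32 of 50 promoters of the G2/M genes (64.0%, 45 of 52 genes matched), against 17.6% of the 34 promoters of the S phase genes (31 of 43 matched) and 17.9% of all promoters. A CHR together with a CCAAT box was found in 25 of the 50 G2/M promoters, 11.8% of the S phase promoters and 6.95% of all promoters. The E2F site was found in 35.3% of the S phase, 6.00% of the G2/M and 2.26% of all promoters. A match describes letters in the window and is not evidence of binding.

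The following 4 promoters show these arrangements, each from 250 bases before to 20 bases after the start, 5′ to 3′ on the strand of the gene, in lower case with the matches in capitals. Those of Cdk1 (chr10:69352893-69353162, minus strand) and Ccnb2 (chr9:70421535-70421804, minus strand) show the CHR with CCAAT boxes, which read ATTGG where the box lies on the other strand. That of Mcm5 (chr8:75109259-75109528, plus strand) shows 2 overlapping E2F sites. That of Ezh2 (chr6:47595011-47595280, minus strand) shows an E2F site from base 4 to base 11 after the RefSeq start and no CHR. In the GENCODE annotation, whose span is given below, Ezh2 begins at base 47595341 on the minus strand, upstream of this whole window. Positions before and after the start are therefore those of the RefSeq start alone.
Cdk1: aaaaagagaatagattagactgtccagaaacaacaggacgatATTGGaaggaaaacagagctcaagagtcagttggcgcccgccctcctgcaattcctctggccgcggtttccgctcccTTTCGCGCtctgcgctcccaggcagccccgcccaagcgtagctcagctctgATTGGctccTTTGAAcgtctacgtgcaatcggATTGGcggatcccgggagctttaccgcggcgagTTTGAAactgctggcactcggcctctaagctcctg
Ccnb2: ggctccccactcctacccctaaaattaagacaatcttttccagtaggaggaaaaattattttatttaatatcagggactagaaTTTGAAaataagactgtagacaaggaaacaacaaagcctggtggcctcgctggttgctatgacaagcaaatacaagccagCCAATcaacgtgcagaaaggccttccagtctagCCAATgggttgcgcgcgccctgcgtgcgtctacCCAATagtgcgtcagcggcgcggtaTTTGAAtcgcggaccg
Mcm5: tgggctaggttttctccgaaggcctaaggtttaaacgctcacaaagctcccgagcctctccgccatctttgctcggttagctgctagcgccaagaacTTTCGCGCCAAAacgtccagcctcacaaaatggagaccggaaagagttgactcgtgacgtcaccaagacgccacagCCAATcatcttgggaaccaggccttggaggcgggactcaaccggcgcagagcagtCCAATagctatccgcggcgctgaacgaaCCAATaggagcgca
Ezh2: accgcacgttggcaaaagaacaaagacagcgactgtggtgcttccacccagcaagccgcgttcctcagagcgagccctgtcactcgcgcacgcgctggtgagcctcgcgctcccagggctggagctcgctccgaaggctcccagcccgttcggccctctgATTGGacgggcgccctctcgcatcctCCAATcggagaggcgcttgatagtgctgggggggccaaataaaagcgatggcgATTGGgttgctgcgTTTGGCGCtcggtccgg

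Each cycling macrophage was placed between S and G2/M by the share of G2/M genes in its UMIs of the 2 lists, of which a cell had a median of 100, against 9 in the comparison macrophages. The share had quartiles of 53.8, 73.2 and 86.6%, and 2051 cells (20.3%, 19.5 to 21.1%) had more S phase than G2/M UMIs. Over the libraries this part ran from 10.7 to 29.6%, with a median of 23.3%. Mki67 and Top2a are themselves lower at the S phase end, at 238 and 313 CPM against 459 and 606 CPM at the G2/M end, so the rule finds cells late in the cycle more readily and gives no share of each phase.

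Genes outside both lists followed this order when the 25% of cells at the S phase end were set against the 25% at the G2/M end, with 2525 cells each and medians of 12068 and 11332 UMIs. Ccne1 stood at 61.5 CPM at the S phase end and 3.39 CPM at the G2/M end, and E2f1 at 87.4 and 9.64 CPM, both lower at the G2/M end in all 12 libraries. In the other direction, Ccnb1 stood at 16.3 and 176 CPM, Plk1, a mitotic kinase, at 7.61 and 112 CPM, and Ccna2 at 54.5 and 167 CPM, all higher at the G2/M end in all 12 libraries. The INK4 genes sat at the G2/M end, with Cdkn2c at 23.2 and 72.0 CPM and Cdkn2d at 18.7 and 95.2 CPM, also in all 12 libraries. Ccnd1 sat at the S phase end, with 243 CPM, which is above the 195 CPM of the comparison macrophages, and 150 CPM at the G2/M end. Cdkn1a was near level at 472 and 451 CPM. Among state genes of macrophages, Arg1 stood at 616 and 591 CPM, Apoe at 15025 and 14679 CPM, and H2-Ab1 at 2805 and 3067 CPM, with 4 to 8 of 12 libraries higher at the G2/M end. Ccr2 stood at 112 and 151 CPM, higher at the G2/M end in 11 of 12 libraries, and Mrc1 at 314 and 294 CPM, higher there in 2 of 12.

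**Figure D3:**
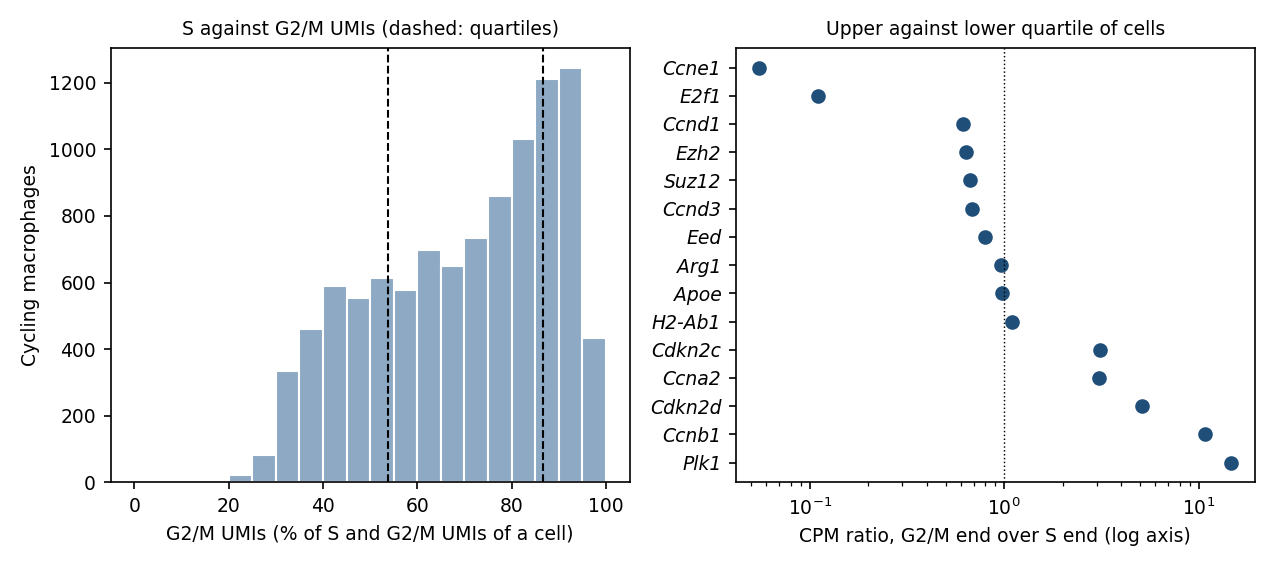
Left, number of cycling macrophages (y axis) by the share of G2/M genes in their S and G2/M UMIs (x axis, %), with dashed lines at the quartiles of 53.8 and 86.6%. Right, ratio of CPM at the G2/M end over the S phase end (x axis, log scale) for 15 genes of neither list, which runs from Ccne1 at 0.0552 to Plk1 at 14.7, with Arg1 and Apoe near 1.

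Of the 11 PRC2 genes 6 were higher and 1 was lower, beside 9.36 and 2.1% of all genes. Ezh2 (chromosome 6, 47530139 to 47595341, minus strand, mm10) stood between 60.4 and 163 CPM over the libraries in the cycling macrophages, with a median of 125, and between 15.03 and 30.69 CPM in the comparison macrophages, with a median of 20.9. The ranges did not overlap. The ratio was 5.40 (5.31 to 5.48) over all libraries and 3.69 to 8.08 in single libraries. At 2000 UMIs per cell, Ezh2 was found in 21.8% of the cycling, 4.07% of the comparison macrophages and 1.06% of neutrophils. Along the cycle Ezh2 was higher at the S phase end, with 142 CPM against 90.4 CPM at the G2/M end, in all 12 libraries. In cycling T cells Ezh2 stood at 225 CPM, against 123 CPM in all cycling macrophages. The summed S phase and G2/M genes were also higher in the cycling T cells, which were the shallower barcodes.

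The partners of EZH2 in the core complex followed at smaller ratios. Suz12 stood at 76.9 against 35.5 CPM (ratio 2.17, 2.12 to 2.21), and its range of 49.0 to 109 CPM in the cycling cells lay above the 27.3 to 48.2 CPM of the comparison cells. The histone chaperones Rbbp7 and Rbbp4 had ratios of 2.38 and 1.92. Eed, which reads the methyl mark, was over 1 in all 12 libraries but below the limit at 1.46. Among the accessory subunits, Phf19 had a ratio of 5.28 (4.90 to 5.69) at a low 6.09 CPM, Mtf2 one of 1.59 and Aebp2 one of 1.18. The subunits that were lower were Phf1, a homolog of Phf19 and Mtf2, at 2.91 against 4.66 CPM (ratio 0.625), Ezh1, the alternative catalytic subunit, at 11.4 against 15.5 CPM (ratio 0.737), and Jarid2 (ratio 0.851), each under 1 in all 12 libraries. Only Phf1 passed the limit. Ezh1 ran from 9.62 to 14.2 CPM in the cycling and from 12.3 to 19.8 CPM in the comparison macrophages.

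**Figure D4:**
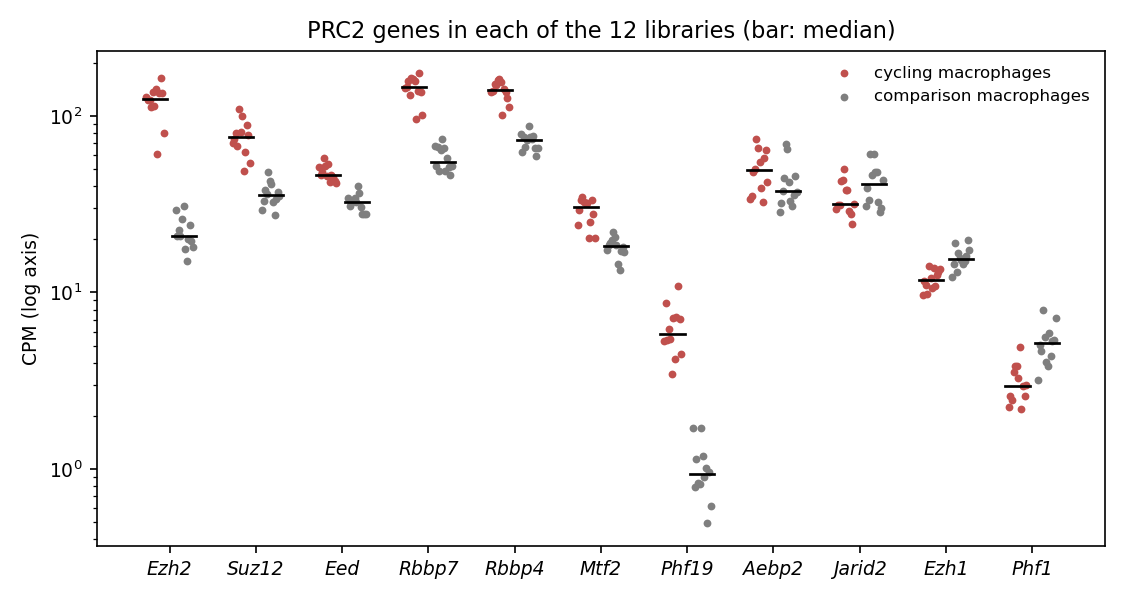
CPM (y axis, log scale) of 11 PRC2 genes in the cycling (red) and comparison (grey) macrophages of each of the 12 libraries, with bars at the medians. The genes separated without overlap include Ezh2, Phf19 and Suz12, while Ezh1 and Phf1 lie lower in the cycling cells and overlap.

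Genes of macrophage states were mostly lower or not counted, and Cxcl10, given below, was higher. The lipid and scavenger list had 5 of 11 genes lower and none higher, beside 2.1% of all genes lower, with a median ratio of 0.608. Gpnmb, a lysosomal glycoprotein of lipid-laden macrophages, ran from 29.95 to 81.71 CPM over the libraries in the cycling and from 73.8 to 387 CPM in the comparison cells, with a ratio of 0.251 (0.244 to 0.258). Spp1, which encodes osteopontin, ran from 476 to 1373 CPM and from 715 to 9028 CPM, with a ratio of 0.380. The widest gap was in library 10, with 1373 against 9028 CPM, and the narrowest in library 6, with 551 against 715 CPM. Fabp5 (0.485), Lgals3 (0.608) and Ctsd (0.665) were also lower, whereas Trem2, a lipid receptor, had a ratio of 0.793 and Msr1 one of 0.932.

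The Arg1, hypoxia and glycolysis list had 6 of 13 genes lower, beside 2.1% of all genes, none higher and none with a ratio over 1, with a median of 0.654. Arg1, arginase 1, was lower in each library, from 189 to 1634 CPM in the cycling and from 486 to 2612 CPM in the comparison macrophages (ratio 0.565, 0.561 to 0.570). Library 7 had by far the highest level in both sets. The HIF targets Hilpda (0.485), Egln3 (0.508), Bnip3 (0.630), Vegfa (0.654) and Ero1l (0.657) were lower, while the glycolytic enzymes Aldoa, Ldha and Pgk1 had ratios of 0.731, 0.838 and 0.847. In the monocyte list 5 of 7 genes were lower, beside 2.1% of all genes: Hp (0.317), Ly6c2 (0.434), Chil3 (0.434), Plac8 (0.476) and Vcan (0.555). Ly6c2 ran from 6.71 to 123 CPM in the cycling and from 22.5 to 263 CPM in the comparison cells. Ccr2, the chemokine receptor of incoming monocytes, had a ratio of 0.943 and was over 1 in 5 of 12 libraries. On pooled CPM without depth classes the ratios were 0.207 for Hp, 0.200 for Ly6c2, 0.283 for Chil3 and 0.250 for Plac8. The summed neutrophil list moved alongside, with a ratio of 0.571 against 0.573 for the summed monocyte list and both under 1 in all 12 libraries, and its part in the monocyte result was not tested. At 2000 UMIs per cell Plac8 was found in 9.67% of the cycling and 19.7% of the comparison macrophages and 35.6% of the neutrophils, and Ly6c2 in 5.06, 12.3 and 18.1%. By the same measure Ccr2 was found in 18.2, 23.3 and 5.32%, higher in the cycling than in the comparison macrophages in 1 of 12 libraries.

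The same cells can be read the other way, as the share that cycled among macrophages with and without a UMI of a state gene, each cell thinned to 2000 UMIs. Of 7019 macrophages with Gpnmb 2.29% cycled (1.96 to 2.67%), against 5.61% of those without, and of 7134 with Ly6c2 2.57% cycled (2.21 to 2.96%), against 5.58% without, both lower in all 12 libraries. With Nos2 the shares were 1.72 and 5.35% (lower in 11 libraries), with Arg1 4.57 and 5.86% (in 12), with Spp1 4.77 and 5.80% (in 11), with Ccr2 4.61 and 5.46% (in 9) and with Folr2 3.46 and 5.38% (in 10). The share with Nos2 came from 24 of 1392 cells, and its interval of 1.11 to 2.55% holds the neutrophil limit of 1.596%. For Cx3cr1, the fractalkine receptor, the order was the opposite, with 6.25% of those with and 4.48% of those without a UMI, in all 12 libraries. H2-Ab1 (5.21 and 5.56%), Mrc1 (5.503 and 5.121%) and Cxcl9 (5.56 and 5.16%) differed least.

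**Figure D5:**
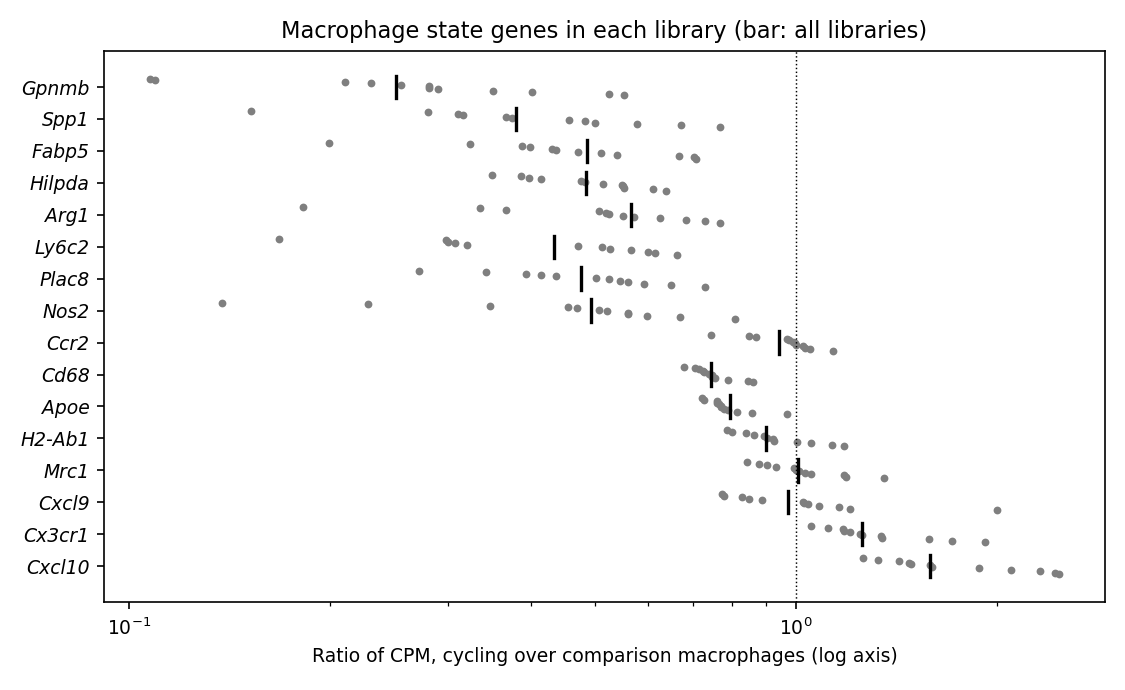
Ratio of CPM in cycling over comparison macrophages (x axis, log scale) for 16 macrophage genes (rows), with a grey point for each of the 12 libraries and a black bar for all libraries together. All points of Gpnmb, Spp1, Fabp5, Hilpda, Arg1, Ly6c2, Plac8 and Nos2 lie under 1 and all points of Cx3cr1 and Cxcl10 over 1, while Mrc1, Cxcl9 and Ccr2 lie on both sides.

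All 7 MHC class II genes had ratios between 0.859 and 0.909 and none was counted, beside 9.36 and 2.1% of all genes. H2-Ab1 stood at 3014 against 3348 CPM and was over 1 in 4 of 12 libraries. Of the 13 genes of the interferon and Cxcl9 list 1 was higher and 1 lower, which is 7.69% each beside 9.36 and 2.1% of all genes. The gene that was higher was Cxcl10, a chemokine that draws T cells, at 808 against 509 CPM (ratio 1.587, 1.577 to 1.597). Cxcl10 ran from 582 to 1005 CPM in the cycling and from 251 to 681 CPM in the comparison macrophages, with a ratio of 1.26 to 2.48 in single libraries. Nos2, inducible nitric oxide synthase, was the lower one (7.38 against 14.97 CPM, ratio 0.493). Of the others, Cxcl9 had a ratio of 0.972, Isg15 0.874, Ifit1 0.757, Rsad2 0.742, Ifit3 0.738 and Ifit2 0.735, the last under 1 in all 12 libraries. Of the 8 Folr2 and Mrc1 genes compared none was counted as higher or lower, beside 9.36 and 2.1% of all genes. Folr2 had a ratio of 0.569 and was over 1 in 1 library, Cd163 one of 0.436 and Lyve1 one of 0.142, over 1 in 4 and 3 libraries, and Mrc1, the mannose receptor, one of 1.01. Cd163 had 48 and Lyve1 17 UMIs in the cycling cells, so both ratios rest on few counts. On pooled CPM without depth classes the ratio of Cd163 was 0.174. The median of the list was 0.713.

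None of the 16 macrophage identity genes was counted in either direction, beside 9.36 and 2.1% of all genes, and their median ratio was 0.834. At 2.1% a list this short may well hold no lower gene. The summed list had a ratio of 0.801 and was under 1 in each library, with 0.943 the highest. Cx3cr1 was the one with a ratio over 1, at 402 against 320 CPM (ratio 1.25, 1.24 to 1.27) and 1.05 to 1.92 in single libraries. Ratios under 1 in all 12 libraries that did not pass the limit included 0.745 for Ctsb, 0.746 for Cd68, 0.758 for Lyz2, 0.795 for Apoe, 0.829 for Ctss and 0.901 for Lgmn. Of the 11 genes compared in the list of macrophage growth control none was counted, beside 9.36 and 2.1% of all genes. Myc had a ratio of 1.09, and Maf, which is known to help hold macrophages out of the cycle, 0.956. The GM-CSF receptor subunits Csf2rb and Csf2ra had 0.795 and 0.876, each under 1 in all 12 libraries. None of the 13 heat shock and immediate early genes was counted, beside the same shares of all genes, with a median ratio of 1.01. Hspa1a, which marks stress of tissue digestion among other things, stood at 1484 CPM in the cycling and 1427 CPM in the comparison macrophages of library 4 and at no more than 440.0 CPM elsewhere. Its part in the low cycling share of library 4 was not tested.

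Among the genes counted as higher and in none of the lists, the 15 with the highest ratios were mostly genes of the same processes. They included the replication histones Hist1h2af, Hist1h2ab, Hist1h2ai, Hist1h3b and Hist1h3c, the mitotic motors and spindle proteins Kif14, Kif18b, Prc1 and Aspm, the kinetochore scaffold Knl1, and Esco2, which acetylates cohesin in S phase, with Depdc1b, Ankle1, Pbk and Mxd3. Esco2 stood at 40.1 against 0.612 CPM (ratio 65.6, 63.8 to 67.5) and Prc1 at 142 against 3.63 CPM (ratio 39.2). For Hist1h2ai, with 111 UMIs in the cycling and 22 in the comparison cells, the ratio rests on few counts.

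Among the genes counted as lower and in none of the lists, the 15 with the lowest ratios were Npy, Atp6v0d2, Fabp4, Mmp12, Sel1l3, Pcdh7, Prss46, Fabp7, Akr1b8, Tnfrsf9, Kdm5b, Ahnak2, Gstm2, Fbxo32 and AC110211.1. Mmp12, macrophage elastase, stood at 71.6 against 370.0 CPM (ratio 0.194, 0.189 to 0.198) and 0.0646 to 0.723 in single libraries. Fabp4, a fatty acid carrier of lipid-laden macrophages, stood at 6.75 against 43.1 CPM (ratio 0.157) and Atp6v0d2, a subunit of the lysosomal proton pump, at 6.51 against 42.5 CPM (ratio 0.153). Kdm5b, a histone H3 lysine 4 demethylase, stood at 3.71 against 14.03 CPM (ratio 0.264), Fbxo32, a ubiquitin ligase subunit, at 8.10 against 27.0 CPM (ratio 0.300), and Tnfrsf9, which encodes 4-1BB, at 3.96 against 15.4 CPM (ratio 0.257). Each of these genes was lower in all 12 libraries, which the rule for a lower gene requires. Sel1l3, Pcdh7, Prss46, Gstm2, AC110211.1 and Npy had 20 to 56 UMIs in the cycling cells, so their ratios rest on few counts. Without the depth classes the ratio moved to 0.252 for Atp6v0d2, 0.236 for Fabp4 and 0.296 for Mmp12.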

How the data were processed

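The authors deposited 1 pooled matrix of UMI counts per gene and barcode, raw and not normalized, with 31053 genes and 140639 barcodes of 12 libraries. The matrix header names Cell Ranger 3.0.2, and the submitters' processing notes name Cell Ranger 2.1.1, Seurat and mm10. Library totals ran from 21649947 to 158760328 UMIs.

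The members and the gene lists were chosen with earlier results of these data known. No label ties the library numbers to mice, and groups were taken from the labels alone, so treatments were not compared and no test was run. Counts were summed with numpy 2.4.6 and pandas 2.3.3 under Python 3.11.15 by library and depth class of 0.5 on the log2 scale, and classes with fewer than 10 comparison cells were left out (87 of 100 kept). Comparison cells were weighted to the UMI total of the cycling cells in each class. The arithmetic was checked on simulated Poisson counts, drawn for both sets from the rates of the comparison cells, with some genes changed on purpose. Such counts cannot test the choice of cells by Mki67 and Top2a or the spread between cells. Levels are CPM, the gene's share of all UMIs scaled to the usual common total, computed from the deposited counts. Any member of the lists could be named, and beside them the 15 highest and 15 lowest ratios among genes that counted as higher or lower and were in no list. No doublet caller was run. Instead, barcodes with transcripts of other cell types and the 10% deepest macrophages were left out as alternatives, and doublets of 2 macrophages cannot be told apart. Neutrophil barcodes had Csf3r, at least 5 UMIs of S100a8 and S100a9, and none of the genes of the rule other than Mki67 and Top2a. Intervals (scipy 1.17.1) are exact at 95% and cover counting error only, and the upper limit for a count of 0 is 3 counts. Those of ratios take the comparison side as fixed. Results for some genes are not reported here.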

Additional observations from a re-analysis of the deposited data

Results flagged for a closer look

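One signal lies in barcodes that the gate leaves out. Of 2319 macrophages with at least 5000 genes, 1274 had UMIs of both Mki67 and Top2a, which is 54.9% (exact 95% interval 52.9 to 57.0%), against 13.8% of the macrophages below the limit. In library 8 these were 722 of 1375 barcodes, in library 12 308 of 625 and in library 11 136 of 181. The barcodes with at least 5000 genes were deeper, with a median of 36568 UMIs against 6881. Thinned to 2000 UMIs, an alternative chosen after seeing the data, the shares were 16.6% (15.2 to 18.2%) and 5.27%. Barcodes of 2 cells can also pass 5000 genes, and their part in this share was not tested.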

How the results depend on the processing

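The share of cycling macrophages, 13.8%, moved to 15.01% without the gene limit, 8.93% with at least 2 UMIs of each gene, 10.3% without the 10% deepest macrophages, 13.4% in the libraries with Y-linked UMIs and 14.7% in those without. Thinned to 1000, 2000 and 5000 UMIs it was 2.04, 5.27 and 13.1%. Leaving out 1 library at a time, it ran from 12.6% (without library 1) to 14.7% (without library 6), the genes higher from 1041 to 1117 and the genes lower from 225 to 293. Against the 1068 genes higher and 240 lower, a limit of 2-fold left 621 and 80, and macrophages with UMIs of 1 of the 2 genes in place of the cycling ones gave 279 and 32. With no rule on the direction in libraries 557 genes were lower. Pooled CPM without depth classes gave 1206 higher and 360 lower genes, of which 997 and 195 were shared with those reported. Of the 146 genes named, the 94 counted as higher or lower kept their direction in each recomputed ratio. The rule already required 1 direction in each library, so leaving out 1 library could not reverse these genes. Of the others, 7 (Cdk6, Cdkn1a, Cdkn2b, Cxcl9, Hspa1a, Mrc1 and Msr1) crossed 1 in 19 ratios, with Hspa1a at 1.01 as reported and 0.570 on pooled CPM. Of all 2336 ratios, 34 ratios of 21 genes moved by more than 1.5-fold, mostly without depth classes. Without barcodes with transcripts of other cell types, Ankle1 went from 55.7 to 109 and Kif14 from 63.3 to 99.8. Ly6c2 went from 0.434 to 0.200 on pooled CPM, Plac8 from 0.476 to 0.250 and Ccne1 from 5.99 to 9.53. The cause was not tested. Groups were not compared because the labels give no group or replicate number for a library. A test over the 12 libraries, each of which holds both sets of cells, was not run, since the cells were chosen by their own readout. Genes under 100 UMIs were not compared.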
